A study of Mus musculus with 28 samples.

Results

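Transcripts of the 4 proton-pumping or ATP-making complexes of the mitochondrial inner membrane were followed in mouse small intestinal organoids and in intestinal mesenchymal cells. A gene was a member when its name fitted the subunit series Nduf, Uqcr, Cox4 to Cox8, Atp5 or the mt- protein genes and its mean over the 20 organoid samples of the BMP table was at least 10 normalised counts, with pseudogenes left out. Of the 29413 genes in that table, 106 names fitted, 14 of them pseudogenes and 2 others below the minimum (Cox4i2 and Cox6a2). The remaining 90 members comprised 77 genes encoded in the nucleus and 13 encoded in mitochondrial DNA, written with the prefix mt-.

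The study asked, by its title, how members of the Tgfb superfamily govern the last steps of enterocyte differentiation. Organoids grown from crypts of wild-type C57BL/6 mice were first kept without Bmp or Tgfb, and a recombinant ligand was then added at 500 ng/ml for 24 h. The BMP table held 4 untreated controls, 4 samples with BMP2, and 3 samples each with BMP3, BMP4, BMP5 and BMP7. A separate Tgfb table held 3 untreated controls and 3 samples given Tgfb at the same dose and time. Every organoid group shared the wild-type genotype. The last table paired fresh mesenchymal cells from the duodenum of PdgfraH2BeGFP mice (1 sample) with such cells (1 sample) immortalised with the HPV16 E6 gene and sorted for high eGFP. The labels give no age and do not say that replicates came from separate mice or cultures, so p-values measure the spread between these samples, which may be technical.

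Electrons from NADH enter complex I, pass through complex III and reach oxygen at complex IV, and the proton gradient built on the way drives the ATP synthase, complex V. Most subunits are encoded in the nucleus and imported, while a small core set is transcribed from mitochondrial DNA as long precursors that are cut into single transcripts. Absorptive cells of the gut lining use this ATP to drive nutrient and ion transport. Complex I supplied 38 nuclear and 7 mt- members, complex III 8 and 1, complex IV 13 and 3, and complex V 18 and 2. Complexes were assigned by gene name, so Ndufa4 and its relative Ndufa4l2 count with complex I although Ndufa4 associates with complex IV.

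Recovered reads per BMP-table sample ranged from 21358620 to 24784834, and 1 read was worth 0.826 to 1.279 normalised counts. That value followed the group: 0.826 to 0.888 in controls, 1.136 to 1.279 with BMP2, 1.141 to 1.197 with BMP4 and at most 0.962 with the other ligands. The normalised counts quoted below carry this scale. The epithelial markers Epcam, Cdh1, Vil1, Krt8, Krt18, Krt19 and Cdx2 were all present in the organoids, with summed levels of 117340 to 132290 in the BMP controls. The 8 mesenchymal markers summed to 124 to 207 normalised counts there, and Col3a1 was at 0. Against the same controls, the epithelial sums were 668220 to 855640 with BMP2 and 252730 to 361400 with BMP4, and the mesenchymal sums were 71.7 to 91.8 and 25.1 to 28.5. In limma 6 epithelial markers were higher and 1 lower with BMP2, and all 7 were higher with BMP4. Vim was the only mesenchymal marker with a mean of at least 10, at 119 to 180 in controls, 31.6 to 37.6 with BMP2 and 19.4 to 26.1 with BMP4. The rest of these mesenchymal sums came from markers below that minimum. The part of these markers in the results below was not tested. In such bulk samples fewer cells of a type and less RNA per cell cannot be told apart.

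With BMP4 the nuclear genes of all 4 complexes rose and the mt- genes did not pass the test, where rose and fell mean an adjusted p below 0.05 in limma over all genes tested. Among 77 nuclear members 72 rose and 2 fell, and their median log2 change was 0.68. The background was 33.7% of 14746 tested genes higher and 31.4% lower, with a median of 0.04. By complex, the members that rose were 36 of 38 in complex I, 8 of 8 in III, 12 of 13 in IV and 16 of 18 in V. The 3 exceptions without a call were Ndufb4 (0.35), Ndufa4l2 (2.38) and Atp5g2 (-0.09), named here after their values were seen. None of the 13 mt- members was called by limma, 0 had an unadjusted p below 0.05, and both edgeR and DESeq2 called 0.

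**Figure D1:**
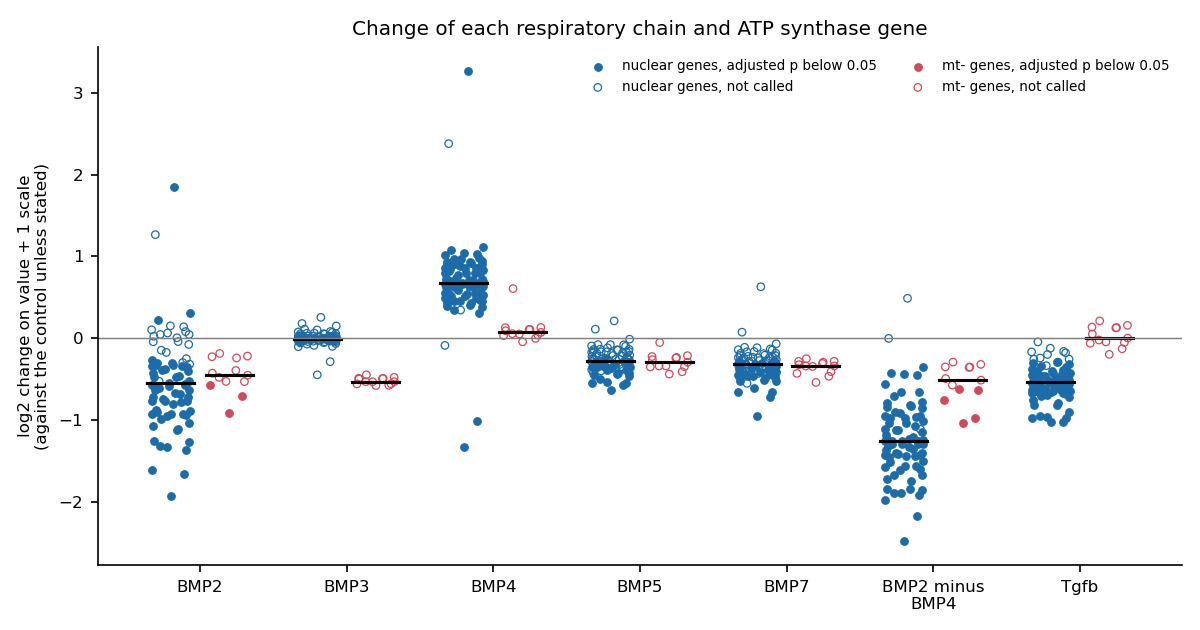
Log2 change (vertical axis, on the log2 of value + 1 scale) of each member in each comparison, with nuclear genes in blue and mt- genes in red; filled points have an adjusted p below 0.05 in limma and black lines are medians. The nuclear median is 0.68 with BMP4 and -0.55 with BMP2, while the mt- median is 0.07 with BMP4 and 0.00 with Tgfb.

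Uqcrfs1, the iron-sulfur protein of complex III, stood at 3230, 3520, 3550 and 3860 normalised counts in the 4 controls and at 7350, 7620 and 7970 with BMP4. Its log2 change was 1.11 (SE 0.094, adjusted p = 1.02e-08). Ndufa6, an accessory subunit of complex I, was at 1390 to 1720 in controls and at 2940, 3510 and 3550 with BMP4, a log2 change of 1.08 (SE 0.096, adjusted p = 1.98e-08). Ndufb10, another accessory subunit of complex I, was 1212 ± 92.2 (SD, n = 4) in controls and 2267 ± 70.2 (SD, n = 3) with BMP4. Ndufb10 was higher in each BMP4 sample than in any control. So were Uqcrfs1 and Ndufa6, but these were named from called members whose groups did not overlap, so that follows from the choice.

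The abundant members moved the same way with BMP4. Atp5b, the catalytic beta subunit of the ATP synthase, was 33650 ± 2760 in controls (SD, n = 4) and 55067 ± 1530 with BMP4 (SD, n = 3), a log2 change of 0.71 that turned to -0.15 under quantile normalization. Cox4i1, a core-bound nuclear subunit of complex IV, was 6212 ± 539 and 11337 ± 1760 (log2 change 0.86, and 0.27 without a call under quantile normalization), and Uqcrc2, a core protein of complex III, was 6360 ± 419 and 11000 ± 265. Ndufb1, an accessory subunit of complex I, rose by 0.41, lost its call without BMP4 II or BMP4 III, and stood at -0.0031 when samples were rescaled to the same total without mt- genes. Only Cox6b2 (-1.01), a testis-type subunit of complex IV present at 24.0 to 31.5 normalised counts in controls, and the second identifier of Atp5o (-1.33) fell.

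The count of nuclear members that rose with BMP4 depended on scaling: it was 40 of 77 when every sample was rescaled to the same total, 38 at the same total without mt- genes (all genes: 20.5% higher, 47.5% lower), and 54 under quantile normalization (all genes: 32.5% higher, 33.4% lower). The same total moved the median of all genes from 0.04 to -0.35 and the split of all genes to 20.9% higher and 46.7% lower. Relative to the median of all genes, the nuclear median was 0.64 as deposited, 0.63 at the same total and 0.31 under quantile normalization. The mt- median was 0.07 as deposited, -0.33 at the same total and -0.46 under quantile normalization, so its sign flipped with scaling. Relative to the median of all genes it was 0.03 as deposited and at the same total and -0.49 under quantile normalization, where 7 of 13 mt- members were lower.

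BMP2 gave the opposite picture in the nuclear genes. Of 77 nuclear members 55 fell and 3 rose, with a median log2 change of -0.55, against 38.4% lower and 36.8% higher among all genes tested and a median of -0.03. Complex I had 30 of 38 lower, complex III 7 of 8, and complex V 14 of 18, whereas complex IV had 4 of 13 lower. That difference between complexes was not tested. The complex IV members that fell were Cox7b (-0.93), Cox5b (-0.47), Cox7a2 (-0.34) and Cox8a (-0.31), named after their values were seen. Without 1 sample the last 2 calls could be lost: Cox7a2 without control II, control VI, BMP2 III or BMP2 IV (-0.25 to -0.33), and Cox8a without BMP2 IV (-0.18). After rescaling to the same total 74 nuclear members fell and 1 rose, and the median of all genes was -0.49, with 53% of genes lower and 24.4% higher (54.3% and 23.5% without mt- genes in the total).

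Ndufa5, an accessory subunit of the matrix arm of complex I, was at 792, 819, 844 and 909 normalised counts in controls and at 178, 212, 224 and 278 with BMP2. Its log2 change of -1.93 (SE 0.12, adjusted p = 3.24e-11) was the lowest of all members. Atp5g1 encodes a copy of the membrane ring subunit c of the ATP synthase, and was at 1320, 1330, 1350 and 1440 in controls and at 345, 404, 481 and 505 with BMP2. Its log2 change was -1.66 (SE 0.10, adjusted p = 5.94e-11). Atp5g2, a further gene for subunit c, was low in this table, at 32.8 to 61.9 in controls and 5.11 to 30.4 with BMP2. Its change of -1.60 (SE 0.53, adjusted p = 0.0106) became -1.13 and lost its call without BMP2 III.

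Several abundant complex IV subunits were not called with BMP2. Cox4i1 was 6372 ± 1070 (SD, n = 4) against 6212 ± 539 in controls, Cox6b1 was 3768 ± 431 against 3635 ± 244, and Cox6a1 was 3172 ± 442 against 2858 ± 104. For all 3 genes the values overlapped those of the controls, with log2 changes of 0.03, 0.05 and 0.14 that did not pass the test. At the same total all 3 were called lower, with -0.43, -0.41 and -0.32, and under quantile normalization with -0.54, -0.43 and -0.30. The 3 nuclear members that rose, named after their values were seen, were Cox7a1, Ndufs4 (0.32) and Ndufa6 (0.22), and their count was 1 without control III, control IV, BMP2 II or BMP2 VI. The Ndufa6 change was not stable: it was -0.23 after rescaling to the same total, and its call was lost without control III, control IV, BMP2 II, BMP2 III or BMP2 VI (0.16 to 0.22).

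**Figure D2:**
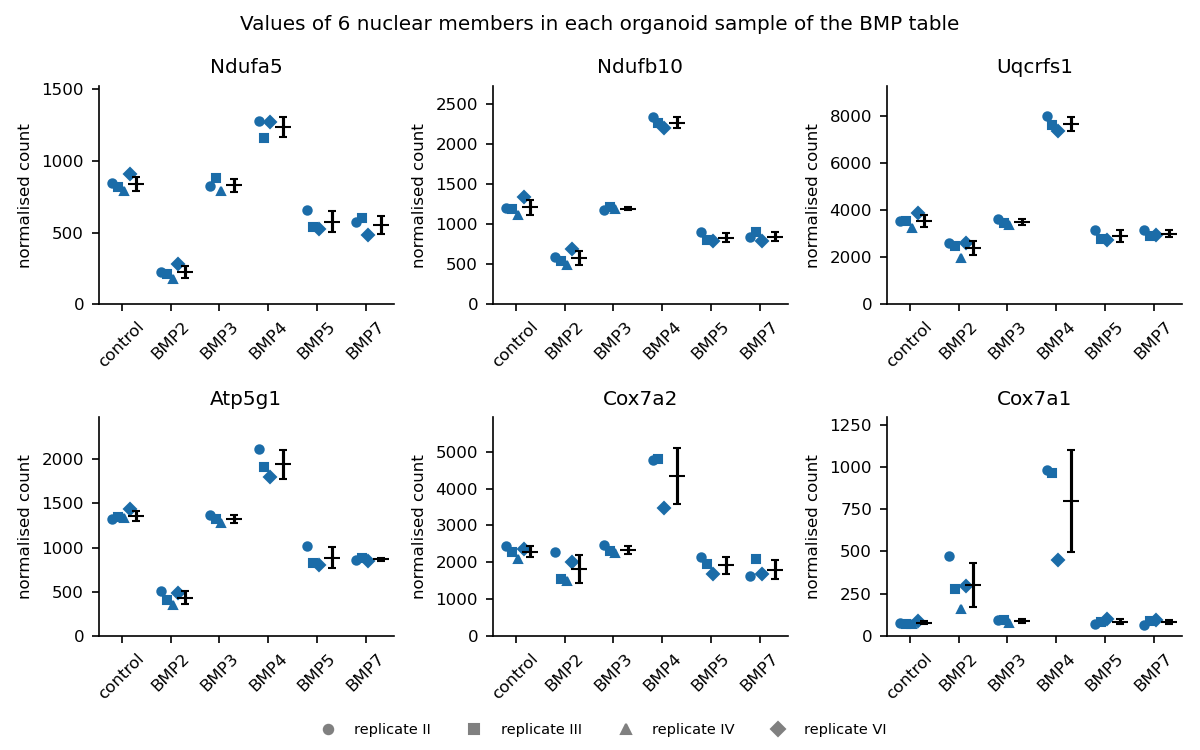
Normalised counts (vertical axes, from 0) of Ndufa5, Ndufb10, Uqcrfs1, Atp5g1, Cox7a2 and Cox7a1 in each of the 20 samples of the BMP table, with the mean and SD of each group as a black bar beside the points. Ndufa5 lies between 178 and 278 with BMP2 and between 1160 and 1280 with BMP4, on either side of the controls, while Cox7a1 is above the controls with both.

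Compared directly, 74 of 77 nuclear members were lower with BMP2 than with BMP4 and 0 were higher, with a median difference of -1.26 (all genes: 33.4% lower, 33.4% higher, median 0.01). The 3 without a call, named after their values were seen, were Ndufa4l2, Cox6b2 and the second identifier of Atp5o. Ndufa5 differed by -2.48 (SE 0.13), Atp5g1 by -2.17 (SE 0.11) and Ndufb10 by -1.98 (SE 0.098), with adjusted p of 7.63e-12, 1.07e-11 and 6.01e-12 in limma. Both ligands were compared with the same 4 controls, and 52 members were lower with BMP2 and higher with BMP4 in those comparisons. Of all genes 38.4% were lower with BMP2 and 33.7% higher with BMP4, so at most 33.7% could meet both. How many of all genes met both was not counted.

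Isoform pairs of complex IV showed where single members left the common pattern. Cox7a1, the heart and muscle type of subunit VIIa, was at 71.0, 71.4, 79.0 and 87.5 normalised counts in controls, at 158, 280, 294 and 473 with BMP2, and at 448, 964 and 985 with BMP4. Its log2 changes were 1.85 (SE 0.27, adjusted p = 5.94e-06) with BMP2 and 3.27 (SE 0.30, adjusted p = 2.36e-08) with BMP4. The widely expressed type, Cox7a2, was far more abundant in count terms, at 2288 ± 147 in controls, 1828 ± 381 with BMP2 and 4357 ± 759 with BMP4. The related Cox7a2l, which takes part in joining complexes III and IV, had log2 changes of 0.01 with BMP2 and 0.46 with BMP4. At the same total these were -0.45, then called, and 0.060, then not called, and under quantile normalization -0.46 and 0.022 with the same calls. Comparison of Cox7a1 between the ligands gave -1.42 (SE 0.30, adjusted p = 0.000333), although 1 BMP2 sample at 473 lay above the lowest BMP4 sample at 448.

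The muscle-type gene Cox6a2, below the minimum of 10 over all samples, was at 5.98 to 21.7 normalised counts with BMP4 and at 0 to 0.888 in controls. The 6 markers of heart and skeletal muscle summed to 364 to 1189 in controls, 1700 to 2396 with BMP2 and 209 to 1049 with BMP4. In both BMP2 and control samples this sum came chiefly from Acta1 (1790 ± 290 and 716 ± 361). Tnnt2, the heart troponin T, was 8.66 ± 5.00 in controls, 171 ± 56.6 with BMP2 and 25.8 ± 9.71 with BMP4, and was also higher with BMP5 (113 ± 57.4) and BMP7 (141 ± 21.8), where Cox7a1 was not called. The part of these markers in the Cox7a1 values was not tested. Ndufa4l2, a relative of the complex IV-associated subunit Ndufa4, ranged from 2.66 to 65.5 in controls and from 77.8 to 198 with BMP4, and its change of 2.38 did not pass the test (SE 1.2, adjusted p = 0.0959). With the replicate number as a block, which paired these samples, the change was 1.37 (SE 0.30, adjusted p = 0.000637) and was called.

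In the fit without a replicate block, BMP5 and BMP7 lowered fewer nuclear genes than the 55 with BMP2, and raised none. With BMP5 27 of 77 nuclear members fell (background 9.87% lower, 16.5% higher; nuclear median -0.28), and with BMP7 34 of 77 fell (background 13.2% lower, 19.2% higher; nuclear median -0.31). The replicate numbers paired these samples with the controls, and with the number as a block the nuclear counts were 48 and 64, with backgrounds of 17.6% and 21.3% lower. In that blocked fit 57 nuclear members fell with BMP2 (background 41% lower), fewer than with BMP7, although the numbers did not pair the BMP2 samples with controls. No mt- member was called by limma without the block, where 0 and 1 had an unadjusted p below 0.05, and edgeR and DESeq2 called 0. With the block 9 of 13 mt- members fell with BMP5 and 12 of 13 with BMP7.

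The counts for both ligands changed when single samples were left out. The share of all genes called in those runs is not given here, so a loss particular to the members cannot be read from them. For BMP5 the 27 became 6 without BMP5 VI, 10 without BMP5 III, 15 without control VI, 16 without control II and 17 without control III. For BMP7 the 34 became 17 without either BMP7 II or BMP7 VI. Other scalings moved the split of all calls: with quantile normalization it was 16.3% higher and 16.4% lower for BMP5, and for BMP7 18.4% and 19.9%, and at the same total 17.4% and 18.5%. At the same total without mt- genes it was 15.2% and 14.5% for BMP5 and 16.6% and 21% for BMP7. The summed epithelial markers were 212360 to 360040 with BMP5 and 261570 to 376170 with BMP7, above the controls, and their part in the nuclear values was not tested.

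Atp5g1 was at 805, 828 and 1020 normalised counts with BMP5 and at 849, 862 and 885 with BMP7, below each control. Its log2 changes were -0.63 (adjusted p = 0.000421) and -0.65 (adjusted p = 0.000226), each with an SE of 0.11. Uqcr10, a small subunit of complex III, was 1672 ± 140 in controls (SD, n = 4), 1139 ± 242 with BMP5 (SD, n = 3) and 1016 ± 126 with BMP7 (SD, n = 3). Uqcr10 was named with both ligands by a rule that required groups without overlap. Its change of -0.57 with BMP5 was lost as a call without BMP5 VI (-0.45). Ndufa5 fell by 0.55 with BMP5 and by 0.61 with BMP7, and Uqcrq, the ubiquinone-binding subunit of complex III, was 1110 ± 79.4 with BMP7 against 1760 ± 191 in controls. In complex IV Cox5a (-0.24) fell with BMP5, 1 of 13, and Cox7b (-0.51), Cox6b2 (-0.95) and Cox5b (-0.30) fell with BMP7, 3 of 13, beside the backgrounds of 9.87% and 13.2%. The Cox6b2 call was lost without BMP7 II (-0.70).

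With BMP3 no change of a nuclear member was detected. None of 77 was called, none had an unadjusted p below 0.05 in limma, and edgeR and DESeq2 called 0; the background was 0% in either direction. The log2 changes of the nuclear members had a median of -0.01. The 13 mt- members were all lower in mean, by -0.45 to -0.58 with a median of -0.53, and 6 had an unadjusted p below 0.05 but none passed the adjustment over all genes. With the replicate block their median was -0.35, 12 had an unadjusted p below 0.05, and again none was called.

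A single test for any difference among the 5 BMP ligands called 75 of 77 nuclear members, against 84.1% of all genes tested. It called 0 of 13 mt- members by limma, with 0 at an unadjusted p below 0.05 and the lowest adjusted p of 0.0615 at mt-Nd1. Both mitochondrial ribosomal RNAs, which are not members, were called by the same limma test (mt-Rnr2 adjusted p = 0.00153). The other tools were not run for this test. It was run under other settings, whose counts by origin are not given here.

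The mt- members differed between replicates as well as between groups. As a share of each sample's total, nuclear members took 1.08% ± 0.0404 in controls (SD, n = 4), 0.542% ± 0.0587 with BMP2, 1.09% ± 0.0161 with BMP3, 1.37% ± 0.0962 with BMP4, 0.861% ± 0.0962 with BMP5 and 0.843% ± 0.0334 with BMP7. The mt- members took 5.75% ± 1.07, 3.19% ± 0.717, 4.03% ± 0.701, 4.61% ± 0.915, 4.60% ± 1.28 and 4.31% ± 0.996. BMP3 had no replicate VI, and BMP4, BMP5 and BMP7 had no replicate IV, so these group means also differ in replicate make-up. Leaving out 1 sample moved the control mean of the mt- share to as low as 5.28%. Replicate VI had the highest mt- share of its group in each group that had it, namely 7.17% for the control, 4.24% for BMP2, 5.67% for BMP4, 6.07% for BMP5 and 5.40% for BMP7. The ratio of the mt- to the nuclear sum was 5.32 ± 0.836 in controls, 5.89 ± 1.10 with BMP2, 3.70 ± 0.609 with BMP3, 3.41 ± 0.942 with BMP4, 5.47 ± 2.02 with BMP5 and 5.14 ± 1.33 with BMP7. In the BMP4 samples with replicate numbers II, III and VI the mt- sum was 0.866, 1.10 and 1.04 times that of the control with the same number, and the nuclear sum 1.67, 1.73 and 1.49 times. As shares of the total, the same ratios were 0.679, 0.834 and 0.791 for the mt- members and 1.31, 1.30 and 1.13 for the nuclear members. For the other ligands the mt- sum was below that of the same-numbered control in every pair. It was 0.650 to 0.838 times with BMP2, 0.646 to 0.890 with BMP3, 0.614 to 0.873 with BMP5 and 0.597 to 0.868 with BMP7. As shares of the total the ratios were 0.498 to 0.598, 0.657 to 0.875, 0.630 to 0.847 and 0.576 to 0.831. By share, then, the mt- members were below the same-numbered control for every ligand, BMP4 included. The numbers did not pair the BMP2 samples with controls. These shares and ratios are descriptions with no test.

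**Figure D3:**
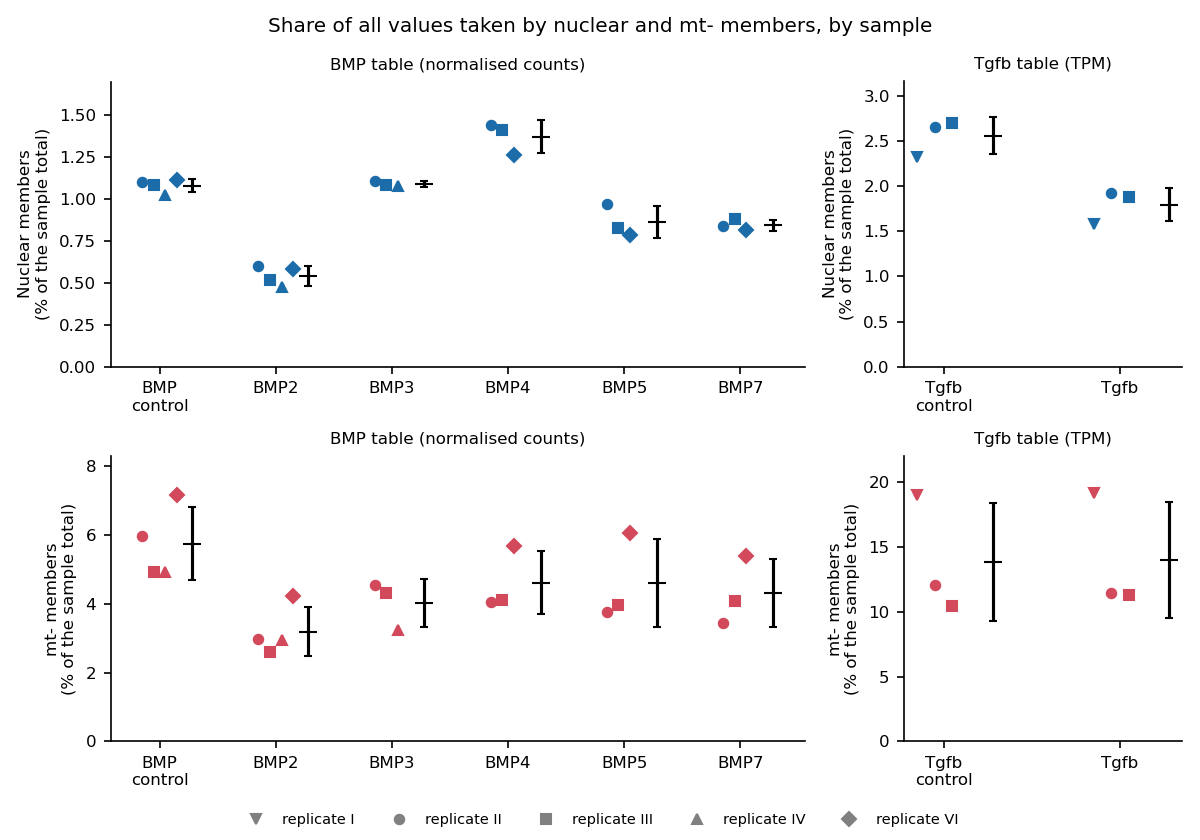
Share of each sample's total (vertical axes, in percent, from 0) taken by the nuclear members (top) and the mt- members (bottom), in normalised counts for the BMP table and TPM for the Tgfb table; symbols mark replicate numbers and black bars the mean and SD. Replicate VI has the highest mt- share in each BMP-table group that holds it, up to 7.17% in controls, and replicate I has 19.0% and 19.2% in the Tgfb table. In those replicate I samples mt-Atp8 alone, whose TPM is uncertain, takes 11.8% (control) and 11.7% (Tgfb) of the total.

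Without the replicate block, single mt- genes were called in the comparisons of BMP2 with controls and with BMP4. Against controls 3 of 13 fell, namely mt-Nd1 (-0.92), mt-Nd2 (-0.70) and mt-Atp8 (-0.57), beside the 38.4% of all genes that were lower, and for all 3 genes the BMP2 values overlapped the controls. mt-Nd1, a membrane-arm subunit of complex I, was at 46200, 48100, 56300 and 91300 normalised counts with BMP2 and at 81400, 94400, 128000 and 148000 in controls (SE 0.27, adjusted p = 0.00442). The BMP2 sample at 91300 was replicate VI, and without it 8 mt- members were called. The mt-Atp8 call was lost without control II, control VI, BMP2 II, BMP2 III or BMP2 IV (-0.44 to -0.58). The other mt- members, without a call, were mt-Atp6 (-0.53), mt-Co2 (-0.53), mt-Co3 (-0.48), mt-Nd6 (-0.45), mt-Nd3 (-0.43), mt-Cytb (-0.39), mt-Nd4l (-0.24), mt-Nd5 (-0.22), mt-Nd4 (-0.22) and mt-Co1 (-0.19). After rescaling to the same total all 13 mt- members fell, beside 53% of all genes, whose median was then -0.49. Relative to the median of all genes, the mt- median was -0.42 both as deposited and at the same total.

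Between BMP2 and BMP4, 5 of 13 mt- members were lower with BMP2, beside 33.4% of all genes: mt-Nd1 (-0.97), mt-Nd3 (-1.03), mt-Nd2 (-0.76), mt-Atp6 (-0.64) and mt-Co2 (-0.62). mt-Nd3, a short complex I gene, was at 354, 634, 1330 and 1480 with BMP2 and at 1380, 1740 and 1940 with BMP4, so that the groups overlapped. The count was 10 without BMP2 VI, 1 without BMP4 VI, 2 without BMP2 III or BMP2 IV, and 3 without BMP2 II.

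The mt- genes did not keep fixed proportions. Within each sample the ratio of mt-Nd1 to mt-Nd4, a pair chosen after the values were seen, was 1.02, 1.22, 1.28 and 1.32 in controls and 0.590, 0.739, 0.812 and 0.853 with BMP2. Among the other ligands (SD, n = 3 each) BMP4 had a ratio of 1.19 ± 0.0508, BMP3 of 1.18 ± 0.154, BMP5 of 1.05 ± 0.0206 and BMP7 of 1.06 ± 0.0316. mt-Nd2 to mt-Nd4 was 0.712 ± 0.0363 in controls and 0.510 ± 0.0406 with BMP2, whereas mt-Co1 to mt-Nd4 was 3.39 ± 0.396 and 3.45 ± 0.175. In the Tgfb table mt-Nd1 to mt-Nd4 was 1.77 ± 0.0453 in controls and 1.40 ± 0.0430 with Tgfb (SD, n = 3 each), without overlap. A ratio within a sample is unaffected by how samples were scaled, and no test was applied to it.

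**Figure D4:**
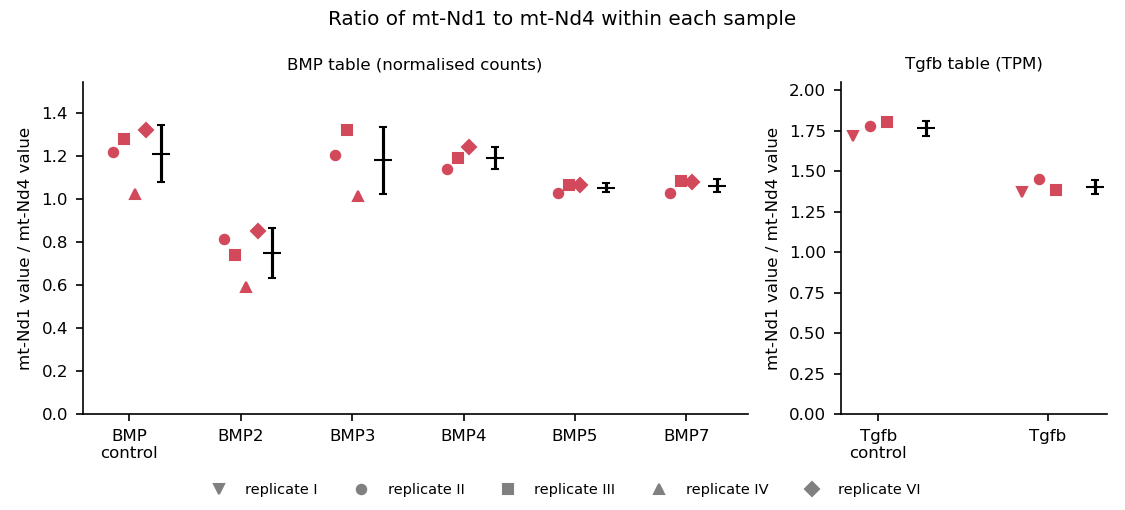
Ratio of the mt-Nd1 value to the mt-Nd4 value within each sample (vertical axes, from 0), with the mean and SD of each group as black bars. The BMP2 samples lie between 0.590 and 0.853 and the controls between 1.02 and 1.32, and the Tgfb samples between 1.37 and 1.45 below their controls at 1.72 to 1.80.

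Tgfb lowered the nuclear genes and left the mt- genes without a call. In this table of TPM, a unit scaled for transcript length and library total, 87 of the 90 members reached a mean of 10 TPM and were tested, which left out Ndufa4l2, Cox6b2 and the second identifier of Atp5o. Of 74 nuclear members 62 fell and 0 rose, with a median log2 change of -0.54, against 32.9% lower and 31.4% higher among 7880 tested genes and a median of -0.01. Complex III had 8 of 8 lower, complex V 16 of 17, complex I 30 of 37 and complex IV 8 of 12. None of the 13 mt- members was called by limma, and 0 had an unadjusted p below 0.05. No other tool was run, since TPM are not counts.

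Uqcrq was at 429, 475 and 525 TPM in the Tgfb controls and at 194, 256 and 258 TPM with Tgfb (log2 change -1.02, SE 0.14, adjusted p = 0.000574). Uqcr10 was at 423, 509 and 520 TPM and then at 208, 254 and 254 TPM (log2 change -1.02, SE 0.12, adjusted p = 0.000313). Ndufb10 was 148 ± 8.34 TPM and 74.7 ± 5.55 TPM (SD, n = 3 each; log2 change -0.98). These subunits were named from called members whose groups did not overlap, so the lack of overlap follows from that choice. Ndufa5 fell by 0.97 and Atp5g1 fell by 0.97, whereas Cox7a1 was 51.2 ± 7.21 and 44.4 ± 3.97 TPM and did not pass the test. The smaller calls were less stable: Cox4i1 (-0.37) was lost without Tgfb control II, Tgfb control III or Tgfb I, and Cox7a2 (-0.48) without Tgfb control II or III.

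On the per-length TPM scale, levels can be set beside each other within the Tgfb controls. Atp5b had the highest mean of the nuclear members at 1311 ± 81.0 TPM (SD, n = 3), while Cox4i1 was at 799 ± 64.0, Cox6b1 at 622 ± 23.3 and Cox8a at 524 ± 30.8. Uqcrfs1 was at 179 ± 14.1 TPM. mt-Co1, the catalytic subunit of complex IV, was at 11496 to 18599 TPM. mt-Atp8 was listed at 60689 to 118342 TPM, but it is very short and overlaps mt-Atp6, so its TPM is uncertain. Replicate I had the highest mt- share, 19.0% in control I and 19.2% in Tgfb I, while the other Tgfb samples had 11.3% and 11.5%. Over all 3 samples the mt- share was 13.8% ± 4.56 in controls and 14.0% ± 4.48 with Tgfb, while the nuclear share was 2.55% ± 0.205 and 1.79% ± 0.184. Most of that mt- share was mt-Atp8 alone, at 8.46% ± 3.01 in controls and 8.43% ± 2.81 with Tgfb. Without mt-Atp8 the mt- share was 5.39% ± 1.57 and 5.55% ± 1.70.

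The summed epithelial markers were 3285 to 3564 TPM in the Tgfb controls and 12661 to 16991 TPM with Tgfb, and the mesenchymal markers 4.91 to 8.02 and 7.35 to 9.60 TPM, with Dcn, Col3a1, Col1a2 and Lum at 0. Of the 7 epithelial markers 6 rose and 1 fell with Tgfb. The part of these markers in the fall of the nuclear members was not tested. The Tgfb and BMP tables were scaled separately, and no difference between Tgfb and a BMP was tested.

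In mesenchymal cells most nuclear members stood within 2-fold between the fresh and the immortalised sample, each a single library with no replicate check. The 8 mesenchymal markers summed to 17506 and 5939 TPM, and Cdh1, Vil1 and Cdx2 were at 0 in both. The ratio of immortalised to fresh had a median of 0.978 over 75 nuclear members (range 0.0142 to 1.63), with 0 at least 2-fold higher and 2 at least 2-fold lower. Among 8959 genes 4.73% were at least 2-fold higher and 8.03% lower. The 2 lower genes were Ndufa4l2, at 10.6 TPM in fresh and 0.151 TPM in immortalised cells, and Cox6b2, at 22.8 and 6.13 TPM. The 13 mt- members had a median ratio of 1.19, with mt-Nd3 at 30.2 and 153 TPM as the only one at least 2-fold higher. Cox7a1 was at 1.59 and 1.44 TPM in these cells.

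The genes that surround the respiratory chain were read from lists chosen with earlier results of these data known. Their counts stand beside the share of all genes, which was 38.4% lower with BMP2, 33.7% higher and 31.4% lower with BMP4, and 32.9% lower with Tgfb. That share was 9.87% lower with BMP5 and 13.2% lower with BMP7. The genes of succinate dehydrogenase, cytochromes c and c1, and the acyl carrier Ndufab1 moved with the nuclear members: 7 of 7 fell with BMP2, 7 of 7 rose with BMP4, 6 and 5 of 7 fell with BMP5 and BMP7, and 7 of 7 fell with Tgfb. Sdhb, the iron-sulfur subunit of succinate dehydrogenase, changed by -0.94 with BMP2, 0.98 with BMP4 and -0.92 with Tgfb. Of 16 citric acid cycle and pyruvate dehydrogenase genes 13 fell with BMP2, 14 rose with BMP4 and 15 fell with Tgfb. Dlat, a subunit of pyruvate dehydrogenase, changed by -1.38, 0.33 and -0.77. With BMP3, limma called 0 genes in each of these lists.

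The machinery that makes and assembles the complexes held both higher and lower genes with BMP4, in shares that for the assembly factors and the lower ribosomal protein genes were near those of all genes (33.7% higher, 31.4% lower). Of 78 mitochondrial ribosomal protein genes 68 fell with BMP2, while with BMP4 14 rose and 28 fell, and 59 fell with Tgfb. Of 46 assembly factors 36 fell with BMP2, and with BMP4 14 rose and 12 fell. Ndufaf4, an assembly factor of complex I, changed by -2.77 with BMP2, -1.24 with Tgfb and -0.21 with BMP4, the last without a call. Of 30 genes for the upkeep and expression of mitochondrial DNA 24 fell with BMP2, and with BMP4 3 rose and 18 fell. Mgme1, an exonuclease of mitochondrial DNA, fell by 3.46 with BMP2 and by 1.72 with BMP4. Tfam, which packages mitochondrial DNA and starts its transcription, had a mean of 1812 ± 131 normalised counts over the 4 controls, 432 ± 53.9 over the 4 BMP2 samples and 983 ± 13.2 over the 3 BMP4 samples. The mitochondrial ribosomal RNA mt-Rnr2 rose by 0.96 with BMP4 (adjusted p = 0.00559), while mt-Rnr1, the other of the pair, had 0.44 and was not called (adjusted p = 0.187).

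Among 11 tested regulators of mitochondrial biogenesis 2 rose and 4 fell with BMP2, and 3 rose and 6 fell with BMP4. The share of all genes was 36.8% higher and 38.4% lower with BMP2 and 33.7% higher and 31.4% lower with BMP4, so the count lower with BMP2 and that higher with BMP4 were near it. Ppargc1a, a coactivator of respiratory genes, was at 147 to 209 normalised counts in controls, 15.2 to 49.9 with BMP2 and 488 to 996 with BMP4, with no overlap. Ppargc1b, its relative, was 349 ± 37.7, 63.2 ± 17.3 and 650 ± 43.9. Esrra, a nuclear receptor that acts with both, was 1248 ± 160, 1138 ± 82.6 and 3363 ± 107, and Nrf1, a factor that binds respiratory gene promoters, was 737 ± 55.9, 818 ± 53.3 and 487 ± 48.7. Log2 changes with BMP4 were 1.86 for Ppargc1a, 0.90 for Ppargc1b, 1.44 for Esrra and -0.60 for Nrf1, all called by limma. With BMP2 they were -2.63, -2.48, -0.13 and 0.15, of which the first pair was called. Ucp2, a carrier of the inner membrane, changed by -1.24 with BMP2 and 1.28 with BMP4.

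Since the nuclear members moved together, their promoters were read from a RefSeq table of build GRCm38.p6, which held 64 of 76 nuclear symbols. Shown are the 250 bases before a start of Ndufa5, the member with the lowest change with BMP2, and of the isoforms Cox7a2 and Cox7a1, which parted with BMP2; capitals mark an NRF1 motif.
Ndufa5 (chr6:24527691-24527940, minus strand): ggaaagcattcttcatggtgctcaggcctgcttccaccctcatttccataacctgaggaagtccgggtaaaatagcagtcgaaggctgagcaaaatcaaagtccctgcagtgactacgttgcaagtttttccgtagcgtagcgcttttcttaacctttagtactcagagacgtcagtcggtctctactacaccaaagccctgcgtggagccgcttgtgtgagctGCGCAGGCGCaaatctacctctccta
Cox7a2 (chr9:79759854-79760103, minus strand): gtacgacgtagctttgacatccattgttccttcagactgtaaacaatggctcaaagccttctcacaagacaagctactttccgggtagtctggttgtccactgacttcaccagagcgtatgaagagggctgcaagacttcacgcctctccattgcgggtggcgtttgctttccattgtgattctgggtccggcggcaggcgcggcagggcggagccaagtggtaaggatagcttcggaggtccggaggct
Cox7a1 (chr7:30183921-30184170, plus strand): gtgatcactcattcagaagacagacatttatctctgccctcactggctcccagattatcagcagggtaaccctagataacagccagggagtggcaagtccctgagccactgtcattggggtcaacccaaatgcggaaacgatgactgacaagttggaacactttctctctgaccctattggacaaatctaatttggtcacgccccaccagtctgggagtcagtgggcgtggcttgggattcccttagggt
Ndufa5 held the NRF1 motif, GCGCA and GCGC with any base between them, once, and the letters of none of the searched motifs were found in these windows of Cox7a2 and Cox7a1. Over windows of 250 bases before to 50 after the start, on both strands, the NRF1 motif was in 23.4% of members, 11.0% of the 10562 tested genes with a promoter and 5.19% of all 27025. The ETS motif CCGGAAG was in 23.4%, 19.7% and 9.93%, the YY1 motif AAGATGGC in 15.6%, 5.16% and 3.19%, and the estrogen-related receptor motif TCAAGGTCA in 1.56%, 0.312% and 0.466%. That 1.56% was 1 gene of 64 members. At least 1 of the NRF1, ETS and YY1 motifs was in 35 of 64 members (54.7%) and in 31.5% of the tested genes. Each motif was counted on its own, also where matches overlap, and a match is a description and not a binding site.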

How the data were processed

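mRNA libraries of 28 mouse samples were read as 75-base single ends, per the labels' design text. Per the submitters' processing notes, Trim Galore, Salmon, DESeq2 and the build GRCm39 were used, and roles and versions are not given in the sources used here. The BMP table holds the authors' signal, normalised counts rounded to 3 significant digits; 100.0% of the 180721 low values were whole multiples of 1 read. The Tgfb and mesenchymal tables hold the authors' deposited TPM, scaled separately, so tests stay within a table.

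The members and lists were chosen with earlier results of these data known. Pseudogenes were left out by annotated type as well as by -ps; the type also removed Cox6c2 and Ndufb4c. Cox7c, Ndufb4, Cox6c, Ndufa12 and Ndufs5 have near-identical pseudogenes, Atp5o has 2 identifiers, and mt-Atp8 overlaps mt-Atp6, so these values are uncertain.

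Log2(value + 1) was fitted with limma 3.58.1 (R 4.3.3) over genes with a mean of at least 10, all BMP groups together, and the Tgfb table on its own. Fold changes are on that scale, which understates low genes. A gene was called at an adjusted p below 0.05 (Benjamini-Hochberg over all genes tested). edgeR 4.0.16 and DESeq2 1.42.0 on the recovered reads were alternatives, since the deposited values are not raw counts. The scripts were tested on simulated data. Genes to name were chosen as all mt- members, the 3 largest called changes each way without overlap in each comparison, isoform sets, the highest member of a complex, the first gene of each context list by p and chosen regulators. Some genes that this rule names are not reported here.

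Same-numbered samples were taken as paired where every pair's deviations correlated above 0.1. This held for controls with BMP3, BMP4, BMP5 and BMP7 (lowest r 0.281, 0.190, 0.158 and 0.236), and comes from the data, since the labels give only the numbers. Promoters are of GRCm38.p6; the files hold no coordinates.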

Additional observations from a re-analysis of the deposited data

Results flagged for a closer look

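In the BMP2 group the value of Uqcrq in replicate II (1810 normalised counts) lay far from the other 3 samples (1150, 1150 and 1220), with a gap of 0.894 of the group's range. mt-Atp6 in the BMP2 group had a gap of 0.867 of its range. These were the 2 flags from 76 checks of named members in groups of 4. Chance sets apart about 1 in 20 such groups.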

How the results depend on the processing

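The counts of nuclear members lower with BMP2, lower with Tgfb and lower with BMP2 than with BMP4 stayed within 1.5 times under each alternative run. Over all counts of members and shares, 578 values stayed close and 70 values, of 15 results, moved. Of the named results that were called, 1770 values kept their call, 113 lost it and 7 changed sign. The cause was not tested for any of these.

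At the same total, at the same total without mt- genes, and under quantile normalization, nuclear members higher with BMP2 were 1, 1 and 1 (3 as reported) and mt- members lower with BMP2 13, 13 and 12 (3 as reported; edgeR 6, DESeq2 5). Of all genes 53%, 54.3% and 37.6% were lower with BMP2 under these scalings. Ndufa6 with BMP2 was -0.23, -0.27 and -0.094. Nuclear members higher with BMP4 were 40 and 38 at the same totals, and under quantile normalization 7 mt- members were lower with BMP4 and Atp5b was -0.15. Ndufb1 with BMP4 was -0.0031 at the same total without mt- genes. Nuclear members lower with BMP5 were 43 under quantile normalization. With BMP7 the 3 scalings gave 59, 65 and 63 nuclear members lower and 1 mt- member in each. Between BMP2 and BMP4 they gave 8, 9 and 9 mt- members (all genes: 35.4%, 36.3% and 31.4% lower), a minimum mean of 1 gave 3, and edgeR 2. Nuclear members lower with BMP4 were 1 at a minimum mean of 50 and 1 with copies summed; 1 mt- member was higher with BMP4 when only the 2 groups were fitted, and 1 nuclear member was higher with Tgfb at a minimum mean of 1.

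With the replicate block, BMP5 had 48 nuclear and 9 mt- members lower and BMP7 64 and 12; it moved no count for BMP3 or BMP4 by over 1.5 times. The numbers did not pair the samples by the check for BMP2 with controls (lowest r 0.018), BMP2 with BMP4 (-0.040) or Tgfb with controls (-0.019). There the block gave 9 mt- members lower with BMP2 than in controls (all genes: 41% lower) and 9 lower than with BMP4 (35.9%). For Tgfb it gave 1 mt- member higher (33.6%) and 2 lower (35.2%). The block together with the same total without mt- genes was chosen after seeing the data, like the copies summed and the removal of replicate VI. It gave 13 mt- members lower with BMP2 (all genes: 57.3% lower) and -0.27 for Ndufa6. With BMP4 it gave 41 nuclear members higher (all genes: 23.3%), 12 mt- members lower (50.7%) and -0.032 for Ndufb1. The mt- median with BMP4 was then -0.05 relative to the median of all genes. Nuclear and mt- members lower were 55 and 12 with BMP5 (all genes: 21.8%) and 70 and 12 with BMP7 (29.1%). Lower with BMP2 than BMP4 were 13 mt- members (39.3%). With Tgfb 1 mt- member was higher (33.5%) and 2 lower (34.7%). Without replicate VI in any group, nuclear members lower were 6 with BMP5 and 16 with BMP7, and mt- members lower were 7 with BMP2, 1 with BMP5, 1 with BMP7 and 8 between BMP2 and BMP4.

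Leaving out each sample in turn gave 2 to 8 mt- members lower, 1 to 4 nuclear higher and 48 to 58 nuclear lower with BMP2, 67 to 73 nuclear higher with BMP4, 6 to 33 nuclear and 0 mt- lower with BMP5, 17 to 38 nuclear and 0 to 1 mt- lower with BMP7, 48 to 66 nuclear lower with Tgfb, and 1 to 10 mt- lower, 71 to 74 nuclear lower and 0 to 1 nuclear higher with BMP2 than BMP4. Rescaling to the same total was not run for the Tgfb table, whose columns already share a total. Depth limits the low members Ndufa4l2, Cox6b2 and Atp5g2.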

Other observations

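Nucleotide, phosphate and substrate carriers, uncoupling proteins and the outer-membrane VDAC pores were read beside the chain. Of 12 tested, 7 fell and 3 rose with BMP2, 10 rose and 2 fell with BMP4, and 7 fell and 1 rose with Tgfb. Of all genes tested, 38.4% fell and 36.8% rose with BMP2, 33.7% rose and 31.4% fell with BMP4, and 32.9% fell and 31.4% rose with Tgfb. Slc25a5, an ADP/ATP carrier, changed by -1.33 with BMP2, 0.98 with BMP4 and -0.81 with Tgfb, whereas the muscle-type carrier Slc25a4 fell by 1.70 with BMP2 and by 1.26 with BMP4. Atpif1, the inhibitor of the ATP synthase, changed by -0.30 with BMP2, 0.78 with BMP4 and -0.62 with Tgfb.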
